A study of Rattus norvegicus with 52 samples.

Results

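The sterol branch of cholesterol synthesis was followed here through 9 genes: Fdft1, Sqle, Lss, Cyp51, Msmo1, Nsdhl, Ebp, Sc5d and Dhcr7, which encode enzymes that act in succession from the making of squalene to cholesterol. Members were all probe sets of the Affymetrix RAE230A and RAE230B rat arrays whose gene symbol, or an older alias of it, is one of these names. They came to 15 of 31256 probe sets and 9 of the 13807 genes that have a single symbol on the arrays. Of the 15 probe sets, 13 were bright enough to be tested, and 2 dim ones, the second probe sets of Lss and Cyp51, were not. For each gene the probe set with the highest mean over the 26 rats is used as its leading probe set; 5 of the genes have several and 4 have 1. All 9 leading probe sets were tested. The left kidney of each of 26 male rats gave the RNA. The groups were ET3x2 rats on high salt (4 rats) and low salt (4 rats), ET3x1 rats on high salt (4 rats) and low salt (4 rats), and S rats on high salt (5 rats) and low salt (5 rats). S is the inbred Dahl salt-sensitive strain SS/jr, and ET3x2 and ET3x1 are congenic strains, which carry a donor chromosome segment on the S background; which segments they carry is not given in the sources used here. All rats ate a 0.4% NaCl diet from weaning at 30 days of age. High-salt rats were moved to a 4% NaCl diet for the last 24 hours, and all were 40 to 42 days old at death. The labels distinguish the groups by strain and diet alone.

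In this pathway farnesyl diphosphate, the product of the mevalonate branch, is joined into squalene, which is oxidised, folded into the ring system of lanosterol and then trimmed to cholesterol. Genes of both branches are known targets of the transcription factor SREBP-2, which is held in the endoplasmic reticulum while membrane sterol is plentiful and released when it falls. NF-Y and Sp1, which bind CCAAT and GC-rich boxes, are known partners of the SREBP factors at many of these promoters. The kidney makes cholesterol for its own membranes, while the adrenal gland that lies against it also uses the sterol for steroid hormones.

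Promoters are shown for 3 members whose responses recur below, because they span the range of CCAAT boxes found among the members: Cyp51 has none, Msmo1 has 3 and Nsdhl has 5. The bases before each gene's start are from RefSeq on the GRCr8 build, written 5′ to 3′ on the plus strand, which is the coding strand of all 3, with the CCAAT box or its reverse complement ATTGG in capitals. Cyp51 is at chr4:30991443-30991692, Msmo1 at chr16:29746863-29747112 and Nsdhl at chrX:155817110-155817300, where the window stops at the annotated gene.
Cyp51: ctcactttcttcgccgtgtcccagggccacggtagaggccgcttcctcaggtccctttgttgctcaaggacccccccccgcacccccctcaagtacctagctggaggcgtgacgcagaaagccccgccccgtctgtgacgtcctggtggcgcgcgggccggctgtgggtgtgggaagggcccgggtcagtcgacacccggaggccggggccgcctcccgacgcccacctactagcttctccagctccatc
Msmo1: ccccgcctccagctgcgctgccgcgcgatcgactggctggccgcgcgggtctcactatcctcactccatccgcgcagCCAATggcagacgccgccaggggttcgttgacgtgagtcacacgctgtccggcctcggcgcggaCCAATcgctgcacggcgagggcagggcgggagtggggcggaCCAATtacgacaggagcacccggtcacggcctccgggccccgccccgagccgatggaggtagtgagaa
Nsdhl: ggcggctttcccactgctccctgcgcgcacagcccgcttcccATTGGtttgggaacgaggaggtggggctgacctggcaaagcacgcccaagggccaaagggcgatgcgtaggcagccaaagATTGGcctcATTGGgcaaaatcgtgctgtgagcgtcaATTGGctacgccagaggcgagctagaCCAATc
A promoter entry (250 bases before to 50 after the start) was found for 7 of the 9 members, all but Fdft1 and Sqle. CCAAT, searched on both strands, was in 5 of the 7, against 37.5% of all 33469 promoters in the table, and 3 or more copies, as in Msmo1 and Nsdhl, were in 3.02% of all promoters. The GC box GGGCGG was in 6 of the 7, against 33.1% of all. The letters TCACNCCAC, the core of a sterol response element, were in 0 of the 7, against 1.12% of all. In the Dhcr7 promoter 2 GC boxes shared 1 base. These matches describe letters only.

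The deposited signals are log2 values already normalized by the authors, so each value below is a log2 signal of 1 rat, and differences are on the log2 scale. Signals of different probe sets are not comparable as amounts of RNA. A gene is called higher or lower where the adjusted p of limma's test, corrected by Benjamini-Hochberg over all 15473 tested probe sets, is under 0.05. Each group is a whole-kidney sample of 4 or 5 rats, so in any difference fewer cells of a type and less RNA per cell cannot be told apart. Kidney tubule markers were all present (8 of 8 above the brightness limit, Umod at a mean log2 signal of 13.32), and hepatocyte markers were all below it (0 of 5). On RAE230A, S high-salt rats 1 and 2 stood apart in a hybridisation control, the difference between the bioD and bioC spike-ins, at 1.65 and 1.55 against 2.83 to 2.94 in the other 3 rats of the group. The same 2 rats had the highest S high-salt signals of Sqle, Msmo1, Cyp51, Fdft1, Dhcr7, Ebp and Sc5d. For the members, and for the counts of probe sets called, differences between groups that rest on them are therefore also given without both. This choice was made after seeing the data. Differences of other gene lists and of cell markers are given with both rats included. The correlations between genes, given further below, were not repeated without these 2 rats.

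After 24 hours of high salt, at least 1 gene of the sterol branch, Sqle, was called higher in each strain, and no member was called lower. The count of members called higher was 1 of 9 in ET3x2 rats, 5 of 9 in ET3x1 rats and 5 of 9 in S rats. Members are counted as genes, by the leading probe set, while the shares that follow count probe sets. Over all tested probe sets, 0.304% were called in ET3x2 rats (0.259% higher), 15.9% in ET3x1 rats (6.98% higher) and 2.78% in S rats (2.11% higher). Leaving out 1 rat moved the number of probe sets behind these shares widely: 1 to 294 in place of 47 in ET3x2, 1353 to 3328 in place of 2457 in ET3x1, and 145 to 1000 in place of 430 in S rats. The ET3x2 count was 1 without high-salt rat 1 or 3, 26 without rat 2 and 294 without rat 4, and 17, 149 and 14 without low-salt rats 2, 3 and 4; it was also 73 without S low-salt rat 1. The ET3x1 count moved by over 1.5 times without high-salt rat 3 (1511) and low-salt rats 2 and 3 (1354 and 1353). The S count did so without high-salt rats 1, 2 and 4 (195, 156 and 268) and without each low-salt rat (174, 235, 871, 145 and 1000 without rats 1 to 5). Without both S high-salt rats 1 and 2, the count in S rats was 1 of 9 members, Sqle, and 67 probe sets. The median difference of the 9 members, high minus low salt, was 0.22 in ET3x2, 0.29 in ET3x1 and 0.35 in S rats, beside 0.02, -0.03 and 0.03 over all tested probe sets. Every member was above 0 in S rats, and 8 of 9 were in each congenic strain. All high-salt rats lay above all low-salt rats of their strain for 2 members in ET3x2, 3 in ET3x1 and 4 in S rats; 3.88%, 8.69% and 2.42% of all tested probe sets were separated this way. ET3x1 rats had many probe sets called in both directions, so the share of members called there is to be read against a larger background than in the other strains.

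**Figure D1:**
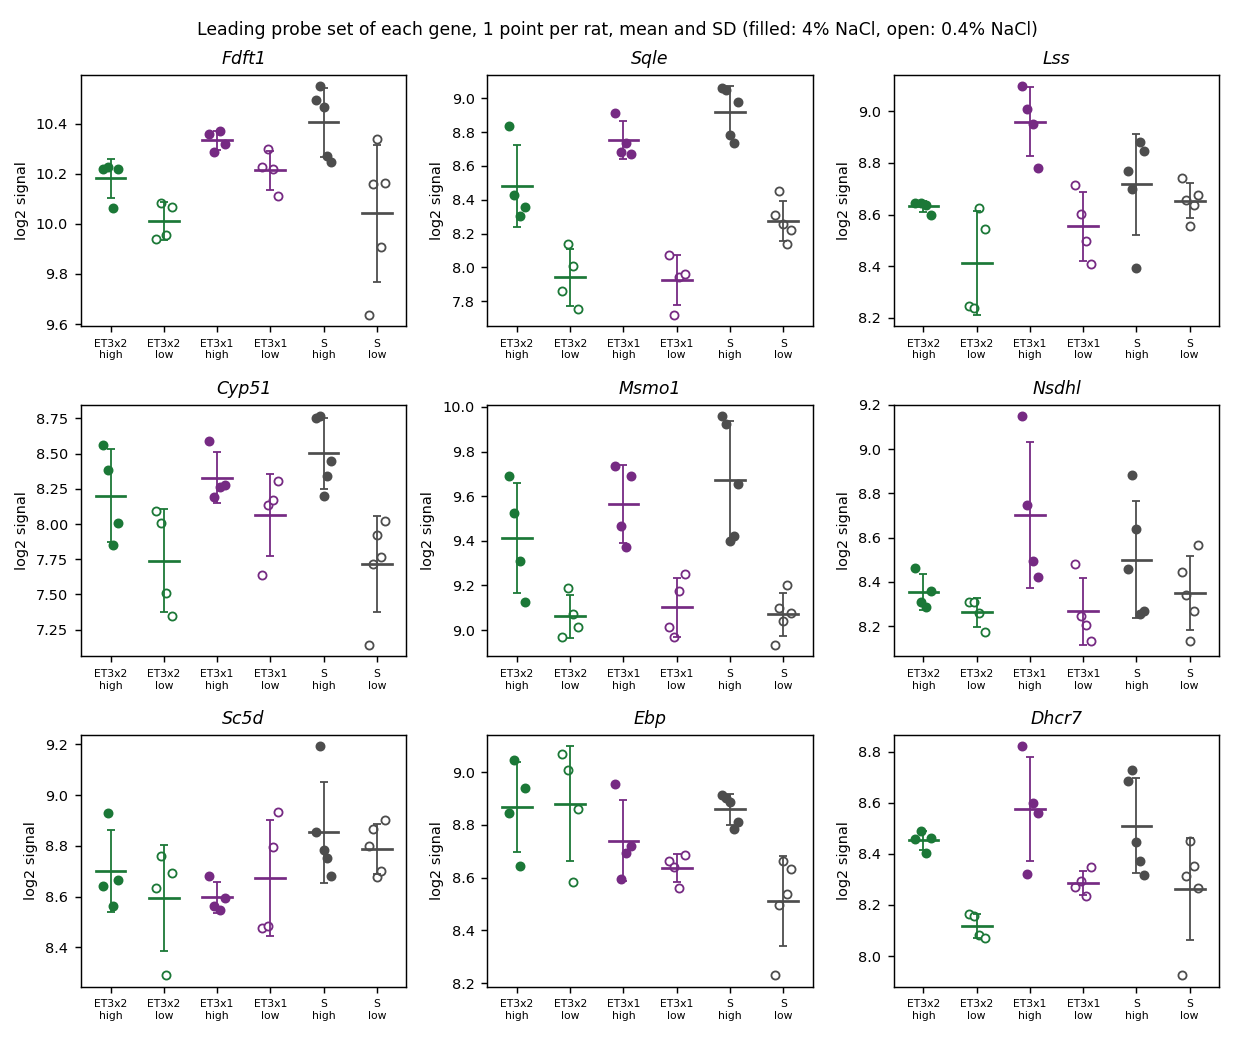
Log2 signal of the leading probe set of each of the 9 genes, with 1 point per rat, the group mean and its SD, for ET3x2, ET3x1 and S rats on 4% NaCl (filled) and 0.4% NaCl (open). Sqle is the gene whose high-salt and low-salt points are apart in all 3 strains, and Fdft1, Nsdhl and Sc5d have overlapping points in all 3.

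Sqle, squalene epoxidase, which carries out the first oxygenation of the branch and is a known rate-limiting step, was the member called higher in all 3 strains. In ET3x2 rats its log2 signals were 8.84, 8.43, 8.30 and 8.36 on high salt, against 7.86, 8.14, 8.01 and 7.75 on low salt. In ET3x1 rats they were 8.91, 8.68, 8.73 and 8.67 on high salt, against 8.07, 7.72, 7.95 and 7.96 on low salt. S rats had 9.06, 9.05, 8.78, 8.73 and 8.98 on high salt, against 8.31, 8.45, 8.26, 8.14 and 8.22 on low salt. The high-salt and low-salt values did not overlap in any strain. Sqle was higher by 0.54 ± 0.11 in ET3x2 (SE; 1.45-fold, adjusted p = 0.020), by 0.83 ± 0.11 in ET3x1 (1.77-fold, adjusted p = 2.1e-05) and by 0.64 ± 0.10 in S rats (1.56-fold, adjusted p = 4.0e-04), all by limma. Without S high-salt rats 1 and 2 the S difference was 0.56 ± 0.11 (adjusted p = 0.016). The ET3x2 call was lost when high-salt rat 1 or 3 or low-salt rat 1 or 4 was left out (difference 0.42, 0.60, 0.51 and 0.48, adjusted p from 0.067 to 0.12), and the other strains' calls held without any 1 of the 26 rats.

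Msmo1, a methylsterol monooxygenase that begins the removal of methyl groups from the sterol ring, was called higher in ET3x1 and S rats, and Cyp51, the lanosterol demethylase, in S rats. Msmo1 had log2 signals of 9.74, 9.47, 9.37 and 9.69 on high salt, against 9.01, 8.97, 9.17 and 9.25 on low salt in ET3x1 rats. In S rats it had 9.96, 9.92, 9.40, 9.42 and 9.66 on high salt, against 8.93, 9.10, 9.04, 9.20 and 9.08 on low salt. The groups were apart in both strains, and Msmo1 was higher by 0.46 ± 0.12 in ET3x1 (SE, adjusted p = 0.010) and by 0.60 ± 0.11 in S rats (adjusted p = 0.0027). In ET3x2 rats the 4 high-salt values (9.12 to 9.69) overlapped the 4 low-salt values (8.97 to 9.19), and the difference of 0.35 ± 0.12 did not pass (adjusted p = 0.21). Both called differences of Msmo1 stayed past the threshold without any 1 rat, but without both S high-salt rats 1 and 2 the S difference was 0.42 ± 0.11 and did not pass (adjusted p = 0.082).

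The leading Cyp51 probe set read 8.75, 8.77, 8.20, 8.34 and 8.45 in S rats on high salt, against 7.14, 7.72, 7.92, 7.76 and 8.02 on low salt. These groups did not overlap, and Cyp51 was higher by 0.79 ± 0.17 (SE; 1.73-fold, adjusted p = 0.011), or by 0.62 ± 0.19 without high-salt rats 1 and 2, which did not pass (adjusted p = 0.16). In the congenic strains the differences of 0.46 ± 0.19 in ET3x2 (adjusted p = 0.32) and 0.27 ± 0.19 in ET3x1 (adjusted p = 0.35) did not pass. The second Cyp51 probe set was below the brightness limit and so was outside the main test, but its high-salt and low-salt rats were apart in all 3 strains. It ranged from 6.50 to 6.93 on high salt and 5.95 to 6.37 on low salt in ET3x2, from 6.68 to 7.08 and 6.36 to 6.62 in ET3x1, and from 6.62 to 6.97 and 6.27 to 6.44 in S rats. When the limit was dropped for the whole table, this probe set was called higher in each strain, by 0.52 ± 0.10 in ET3x2 (adjusted p = 0.0205), 0.33 ± 0.10 in ET3x1 (adjusted p = 0.028) and 0.43 ± 0.09 in S rats (SE, adjusted p = 0.010). The 2 Cyp51 probe sets thus differed in which congenic differences passed, while all 6 differences were above 0.

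Fdft1 and Ebp were called higher in S rats alone among the strains, although the test of the difference between strains, given below, did not pass for either. Fdft1 is squalene synthase, the enzyme that commits farnesyl diphosphate to sterols. Its log2 signals in S rats were 10.50, 10.55, 10.46, 10.27 and 10.25 on high salt, against 9.64, 10.16, 10.34, 9.91 and 10.16 on low salt. The groups overlapped, with low-salt rat 3 above high-salt rats 4 and 5, and the difference was 0.36 ± 0.09 (SE, adjusted p = 0.029). In the congenic strains this probe set differed by 0.17 ± 0.10 in ET3x2 and 0.12 ± 0.10 in ET3x1 rats, and neither passed. The second Fdft1 probe set did not pass in S rats (0.19 ± 0.07, adjusted p = 0.14). It had differences of -0.16 ± 0.08 in ET3x2 (adjusted p = 0.45) and 0.06 ± 0.08 in ET3x1 rats. Ebp, the sterol isomerase also known as emopamil-binding protein, read 8.91, 8.90, 8.89, 8.78 and 8.81 in S rats on high salt, against 8.23, 8.50, 8.66, 8.54 and 8.63 on low salt. Its groups were apart, and the difference was 0.35 ± 0.09 (adjusted p = 0.032). In the congenic strains Ebp differed by -0.01 ± 0.10 in ET3x2 and 0.10 ± 0.10 in ET3x1. Both S calls depended on single rats: Fdft1 lost its call without high-salt rat 1, 2 or 3 or low-salt rat 1 or 4 (0.26 to 0.35), and Ebp without high-salt rat 1, 2 or 3 or low-salt rat 1, 2 or 4 (0.28 to 0.35). Without both high-salt rats 1 and 2 the differences were 0.29 for Fdft1 and 0.31 for Ebp (adjusted p = 0.25 and 0.22).

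Lss, Nsdhl and Dhcr7 were called higher in ET3x1 rats. Lss, lanosterol synthase, which closes the ring system, had log2 signals of 9.10, 9.01, 8.95 and 8.78 on high salt, against 8.72, 8.60, 8.50 and 8.41 on low salt. The 2 groups were apart, and the difference was 0.40 ± 0.10 (SE, adjusted p = 0.0054), a call that held without any 1 rat. Its differences were 0.22 ± 0.10 in ET3x2 and 0.06 ± 0.09 in S rats, and neither passed. The dim second Lss probe set differed by 0.08 ± 0.11 in ET3x2, 0.10 ± 0.11 in ET3x1 and 0.38 ± 0.10 in S rats with no brightness limit, which did not pass in any strain (adjusted p = 0.85, 0.61 and 0.058), so the 2 probe sets ordered the strains differently.

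Nsdhl encodes a sterol dehydrogenase that acts after Msmo1 in the removal of methyl groups. In ET3x1 rats it read 9.15, 8.74, 8.50 and 8.42 on high salt, against 8.48, 8.25, 8.21 and 8.13 on low salt. The groups overlapped by 1 rat, and the difference was 0.44 ± 0.13 (SE, adjusted p = 0.026). Without high-salt rat 1, the highest, it was 0.29 (adjusted p = 0.12), and it also missed the threshold without high-salt rat 2 or low-salt rat 2, 3 or 4 (0.39 to 0.43). The second Nsdhl probe set differed by 0.03 ± 0.09 in ET3x1 rats. Dhcr7 encodes the reductase of the last step of the Kandutsch-Russell route to cholesterol. Its high-salt signals in ET3x1 rats were 8.82, 8.32, 8.60 and 8.56, against 8.27, 8.30, 8.23 and 8.35 on low salt, and the difference of 0.29 ± 0.10 was close to the threshold (adjusted p = 0.049); it was lost in 19 of the 26 fits that left out 1 rat. In ET3x2 rats Dhcr7 had 8.46, 8.49, 8.40 and 8.46 on high salt, against 8.16, 8.16, 8.08 and 8.07 on low salt. These groups were clearly apart, but the difference of 0.34 ± 0.10, with the spread pooled over all groups, did not pass (adjusted p = 0.15).

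The 3 probe sets of Sc5d, the sterol desaturase that acts after Ebp, gave different results. Its leading probe set differed by 0.11 ± 0.11 in ET3x2, -0.08 ± 0.11 in ET3x1 and 0.06 ± 0.10 in S rats (SE), and none passed. The second probe set read 8.16, 8.19, 8.31 and 8.34 in ET3x1 rats on high salt, against 8.05, 7.76, 7.72 and 7.94 on low salt, without overlap, and was called higher there by 0.38 ± 0.10 (adjusted p = 0.013). It differed by 0.27 ± 0.10 in ET3x2 and 0.23 ± 0.09 in S rats, neither past the threshold. The remaining Sc5d probe set had differences of -0.00 ± 0.12, -0.15 ± 0.12 and -0.05 ± 0.11 in ET3x2, ET3x1 and S rats.

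**Figure D2:**
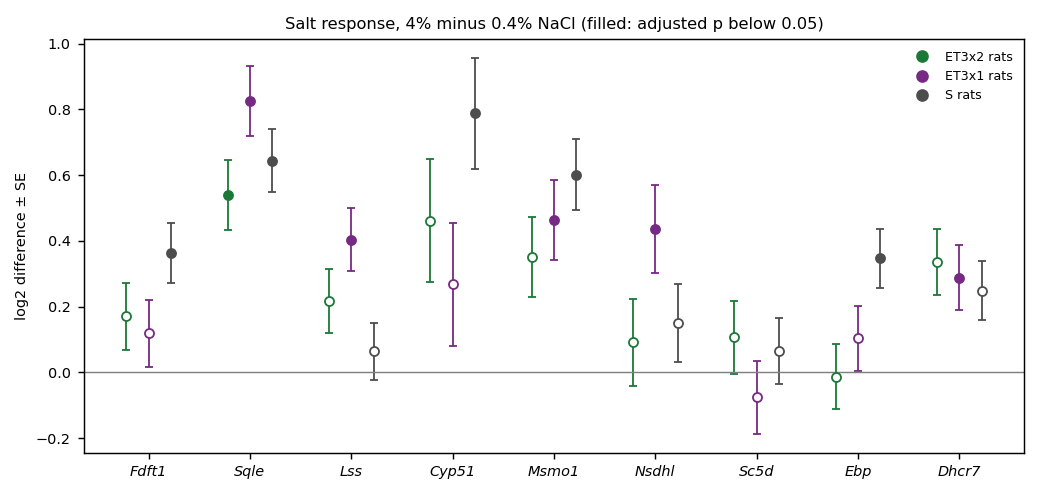
Log2 difference of each leading probe set between 4% and 0.4% NaCl, with its SE from the fit, in ET3x2, ET3x1 and S rats; filled points passed an adjusted p of 0.05. Sqle is filled in all 3 strains, at 0.54, 0.83 and 0.64, and no filled point is below 0.

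The mean of the 3 strains' salt responses, a comparison added after the within-strain values had been seen, called 7 of the 9 members higher and 0 lower, where 14.5% of all tested probe sets were called (9.61% higher). Sqle differed by 0.67 ± 0.06 (SE, adjusted p = 7.8e-08), Cyp51 by 0.51 ± 0.10 (adjusted p = 0.0015), Msmo1 by 0.47 ± 0.07 (adjusted p = 4.0e-05) and Dhcr7 by 0.29 ± 0.06 (adjusted p = 7.5e-04). Lss, Nsdhl and Fdft1 were called at 0.23, 0.23 and 0.22 (Nsdhl lost its call in 13 of the 26 fits that left out 1 rat, and without both S high-salt rats 1 and 2), while Ebp (0.15 ± 0.06, adjusted p = 0.079) and the leading Sc5d probe set (0.03 ± 0.06) were not. The second Sc5d probe set was called at 0.29 ± 0.06 (adjusted p = 9.3e-04). The second probe sets of Fdft1 (0.03 ± 0.04, adjusted p = 0.71 by limma) and Nsdhl (0.006 ± 0.05, adjusted p = 0.95) were not called.

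RNA quality measures moved with diet. The Gapdh control signal at the 3′ end minus that at the 5′ end, on RAE230A in log2 units, averaged 0.747 ± 0.107 on high salt against 0.948 ± 0.067 on low salt in ET3x2 rats (SD, n = 4 each), and 0.594 ± 0.026 against 0.877 ± 0.099 in ET3x1 rats (SD, n = 4 each). In S rats it was 0.812 ± 0.053 on high salt and 0.827 ± 0.072 on low salt (SD, n = 5 each). The ET3x1 ranges were apart by diet, at 0.556 to 0.612 on high salt and 0.768 to 0.986 on low salt. The same measure for actin averaged 0.878 ± 0.162 on high salt against 1.05 ± 0.217 on low salt in ET3x2, 0.609 ± 0.101 against 1.22 ± 0.245 in ET3x1, where the ranges were apart, and 0.923 ± 0.174 against 1.14 ± 0.256 in S rats (SD). With the Gapdh measure as a covariate, members called higher for salt were 0 of 9 in ET3x2, 0 of 9 in ET3x1 and 5 of 9 in S rats; Sqle then differed by 0.49 ± 0.14 in ET3x2 (adjusted p = 0.75), 0.76 ± 0.17 in ET3x1 (adjusted p = 0.12) and 0.64 ± 0.10 in S rats (SE, adjusted p = 7.4e-04). For the mean of the 3 strains, Sqle alone was called with it (0.63 ± 0.10, adjusted p = 0.0050). The difference between the bioD and bioC hybridisation spike-ins on RAE230A averaged 2.67 and 2.29 in ET3x2, 3.08 and 2.54 in ET3x1, and 2.37 and 2.83 in S rats on high and low salt, where high-salt rats 1 and 2 lowered the mean. On RAE230B it averaged 2.16 and 2.28 in ET3x2, 3.03 and 2.23 in ET3x1, and 2.30 and 2.54 in S rats. In ET3x1 rats on RAE230A it ranged from 2.95 to 3.29 on high salt and 2.30 to 2.75 on low salt. There the spike-in and Gapdh ranges were both apart by diet on both chips, so diet and these measures moved together. With each chip's own spike-in difference as a covariate, the counts were 2 of 9 in ET3x2, 4 of 9 in ET3x1 and 2 of 9 in S rats. In S rats Sqle (0.58 ± 0.10, adjusted p = 0.0047) and Msmo1 (0.48 ± 0.11, adjusted p = 0.028) passed, and Fdft1, Cyp51 and Ebp (0.28, 0.65 and 0.28) did not. The part of RNA quality and hybridisation in these differences was not tested beyond these fits.

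Markers of other cell types were compared in the same rats, by the fit without a covariate. Of 9 adrenal cortex markers, 7 were on the arrays and 2 were above the brightness limit. These were Cyp11a1 (mean log2 signal 7.66 on RAE230A) and Nr5a1 (6.57 on RAE230B). Among the dim ones, Cyp11b1 and Star were at 5.22 and 6.25. The linear signal was summed over all 7, mostly dim, markers. In ET3x2 the sum ranged from 714 to 729 on high salt and 713 to 818 on low salt. The ranges were 705 to 773 and 669 to 752 in ET3x1, and 704 to 751 and 684 to 953 in S rats. The groups overlapped in every strain, and neither tested marker was called for salt in any strain. Leukocyte markers moved with diet in S rats: 2 of 6 tested, Coro1a and Tyrobp, were called higher on high salt, and the summed signal of 7 ranged from 4838 to 5353 on high salt against 3945 to 4936 on low salt. In ET3x1 rats 1 of 6 leukocyte markers was called higher, with sums of 5403 to 5751 on high salt and 5516 to 6515 on low salt, and in ET3x2 rats 0 of 6, with sums of 6245 to 6428 and 4548 to 6915. Both tested podocyte markers were called lower in the mean salt response, Podxl with a difference of -0.16 ± 0.05 (adjusted p = 0.019) and Synpo with -0.17 ± 0.05 (adjusted p = 0.018). Of the 8 tubule markers, Slc12a3 was called lower for salt in ET3x1 rats (-0.50 ± 0.11, adjusted p = 0.0021), and Calb1 was called higher in the mean response (0.20 ± 0.05, adjusted p = 0.0073). The part of these cells in the sterol genes' differences was not tested.

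Between strains, few members differed. On high salt, ET3x2 minus S called Sqle alone (1 of 9 members, with 4.25% of all tested probe sets called, 2.97% lower). Those 658 probe sets became 79 to 930 when 1 rat was left out, at 79 and 112 without ET3x2 rats 2 and 4 and 216, 235 and 293 without S rats 1, 2 and 3, and 25 without both S rats 1 and 2, when Sqle no longer passed (-0.35 ± 0.11, adjusted p = 0.16). Sqle was lower in ET3x2 rats by 0.44 on the log2 scale (SE 0.10, adjusted p = 0.017); 1 of the 4 ET3x2 values, 8.84, lay within the S range of 8.73 to 9.06 and the others at 8.43 or below. On low salt, ET3x2 minus S called 2 of 9 members, with 18.2% of all called (9.49% higher and 8.71% lower). Sqle was again lower in ET3x2 rats, with a difference of -0.33 ± 0.10 (adjusted p = 0.022), and 1 ET3x2 rat (8.1396) lay just above the lowest S rat (8.1367), while the other 3 lay below all S rats. Ebp was higher in ET3x2 rats by 0.37 ± 0.10 (adjusted p = 0.0088), at 9.07, 9.01, 8.58 and 8.86, against 8.23, 8.50, 8.66, 8.54 and 8.63 in S rats. The second Fdft1 probe set was also called higher there (0.24 ± 0.07, adjusted p = 0.028), while the leading one differed by -0.03 ± 0.10. With the Gapdh covariate the low-salt difference of Sqle did not pass (-0.31 ± 0.12, adjusted p = 0.088), and with the spike-in covariate that of Ebp did not (0.29 ± 0.10, adjusted p = 0.075). The high-salt call of Sqle was lost without ET3x2 rat 2 or 4 or S rat 1 or 2 (-0.42 to -0.40); the low-salt call of Sqle was lost without ET3x2 rat 1 or 4 or S rat 2 (-0.31 to -0.27), and that of Ebp without ET3x2 rat 1 (0.31).

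ET3x1 minus S called 1 of 9 members on low salt, where 26.8% of all tested probe sets were called (10.1% lower): Sqle was lower in ET3x1 rats, with a difference of -0.35 ± 0.10 (SE, adjusted p = 0.012), lost without ET3x1 rat 2 (-0.28, adjusted p = 0.069). All 4 ET3x1 values, up to 8.07, were below all 5 S values, from 8.14 upward. On high salt the same comparison called 0 of 9 members by limma (2 at an unadjusted p under 0.05, Lss and Sc5d), with 14.5% of all called, and Sqle differed by -0.17 ± 0.10 (adjusted p = 0.26). ET3x2 minus ET3x1 called 0 of 9 members by limma on low salt (1 at an unadjusted p under 0.05, Ebp; 2.73% of all called) and 1 of 9 on high salt (9.22% of all called, 3.74% lower). Lss was lower in ET3x2 rats, at 8.64, 8.65, 8.64 and 8.60, against 9.10, 9.01, 8.95 and 8.78 in ET3x1 rats, a difference of -0.33 ± 0.10 (adjusted p = 0.032). The second Sc5d probe set differed by -0.35 ± 0.10 (adjusted p = 0.032). The Lss call was lost with either covariate (-0.26 and -0.33, adjusted p = 0.22 and 0.13), with the mean of its 2 probe sets (-0.21, adjusted p = 0.11), and without any 1 ET3x2 rat on high salt or ET3x1 high-salt rat 1, 2 or 3 (-0.33 to -0.28).

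Markers of other cells also differed between the strains, in the fit without a covariate. Of 6 tested leukocyte markers, 2 on high salt and 5 on low salt were called higher in ET3x2 than in S rats, and 0 and 5 in ET3x1 than in S rats. Both tested podocyte markers were called lower in each congenic strain than in S rats on both diets. So were the tubule markers Lrp2 and Cubn, with differences of -0.55 ± 0.08 and -0.33 ± 0.08 for ET3x2 minus S on low salt, where Slc12a1 was also called lower (-0.74 ± 0.13). Slc12a3 was lower in ET3x1 than in S rats on high salt (-0.51 ± 0.10), and Slc34a1 was higher in ET3x1 than in S rats on low salt (0.22 ± 0.06). The part of these cells in the strain differences of Sqle, Ebp and Lss was not tested.

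**Figure D3:**
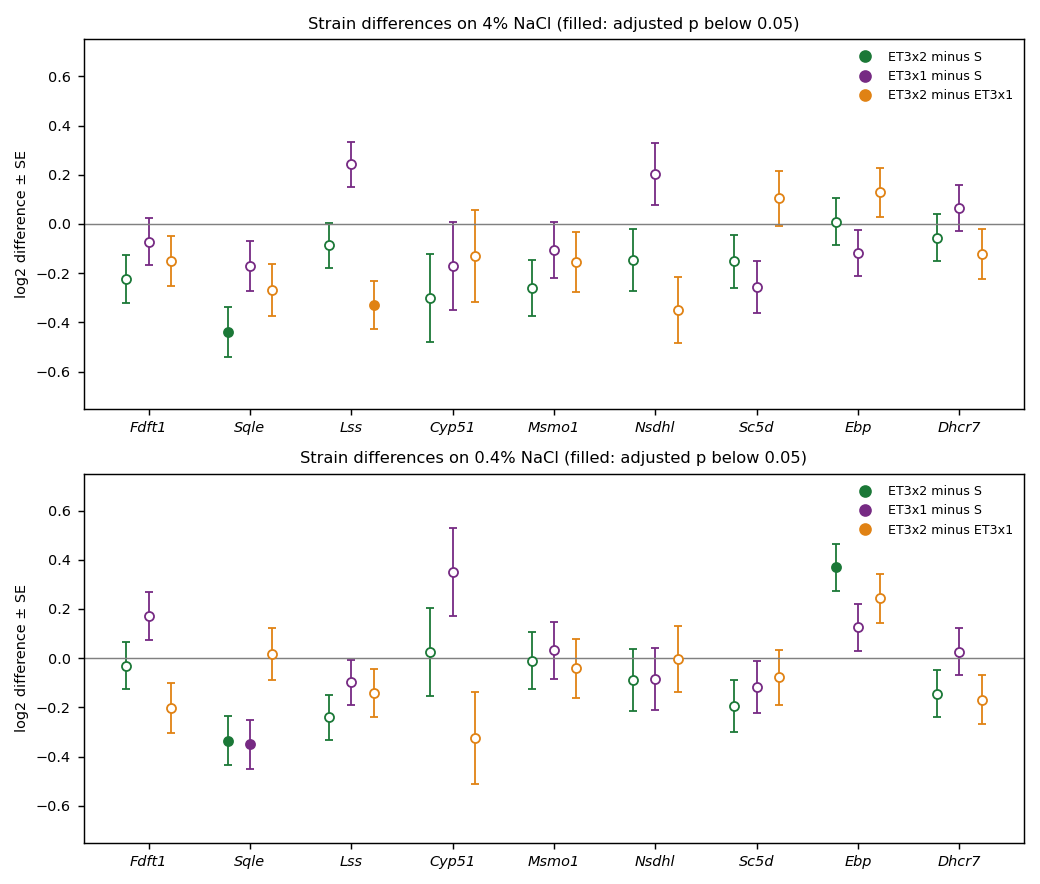
Log2 differences between strains on 4% NaCl (upper panel) and 0.4% NaCl (lower panel) for each leading probe set, with SE; filled points passed an adjusted p of 0.05. The filled points are Sqle (-0.44, -0.33 and -0.35) in comparisons with S rats, Ebp (0.37) on low salt, and Lss (-0.33) between the congenic strains on high salt.

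The strains' salt responses were compared directly, since a call in 1 strain and not in another does not show that they differ. By limma, 0 of 9 members differed between ET3x2 and S rats (0.0194% of all tested probe sets called), 0 of 9 between ET3x1 and S rats (5.49% called) and 0 of 9 between ET3x2 and ET3x1 rats (0.304% called). At an unadjusted p under 0.05 there were 1, 2 and 0 members in these comparisons. The largest differences were -0.36 ± 0.13 for Ebp, ET3x2 minus S (SE, adjusted p = 0.40), -0.52 ± 0.25 for Cyp51, ET3x1 minus S (adjusted p = 0.22), and -0.34 ± 0.19 for Nsdhl, ET3x2 minus ET3x1 (adjusted p = 0.39). For Lss, whose call was in ET3x1 rats, the response differed from that of S rats by 0.34 ± 0.13 (adjusted p = 0.11). For Fdft1, ET3x1 minus S was -0.24 ± 0.14 (adjusted p = 0.29). For Sqle the differences were -0.10 ± 0.14, 0.18 ± 0.14 and -0.29 ± 0.15 in that order of comparisons, each with an SE of 0.14 or 0.15.

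Ordered over all 6 groups, the mean log2 signal of Sqle was 8.92 ± 0.15 in S high, 8.75 ± 0.11 in ET3x1 high, 8.48 ± 0.24 in ET3x2 high, 8.28 ± 0.12 in S low, 7.94 ± 0.17 in ET3x2 low and 7.92 ± 0.15 in ET3x1 low (SD, n = 4 or 5). Each neighbouring pair in that order overlapped in its range. The 3 high-salt groups also took the top 3 places for Cyp51, Msmo1, Nsdhl and Dhcr7. For Nsdhl, however, ET3x2 high (8.354 ± 0.080) was nearly level with S low (8.350 ± 0.166). The second Nsdhl probe set had ET3x2 high last of the 6 groups (7.77 ± 0.10). For Dhcr7 the order was broken by a gap, since ET3x2 high (8.45 ± 0.04) and ET3x1 low (8.29 ± 0.05) did not overlap. Among leading probe sets, this was the single neighbouring pair without overlap. Ebp differed in that both ET3x2 groups came first, at 8.88 ± 0.22 on low salt and 8.87 ± 0.17 on high salt, and S low came last at 8.51 ± 0.17. The leading Sc5d probe set had its top means in S rats, 8.85 ± 0.20 on high salt and 8.79 ± 0.10 on low salt. Its second probe set had its top mean in ET3x1 high (8.25 ± 0.09). The remaining one had its lowest means in S rats, at 6.66 ± 0.16 on low salt and 6.61 ± 0.13 on high salt.

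Other genes of sterol and fatty acid metabolism were read from lists chosen with earlier results of these data known. The mevalonate branch, which makes the precursors of squalene, had 9 listed genes, of which 7 were on the arrays and 5 were tested. Called for salt were 1 higher in ET3x2, 2 higher and 1 lower in ET3x1, and 2 higher in S rats. Idi1, isopentenyl diphosphate isomerase, was higher in all 3, by 0.77 ± 0.16 in ET3x2 (SE, adjusted p = 0.030), 0.80 ± 0.16 in ET3x1 (adjusted p = 0.0014) and 0.87 ± 0.15 in S rats (adjusted p = 0.0015). Fdps, farnesyl diphosphate synthase, was higher in ET3x1 (0.46 ± 0.13, adjusted p = 0.016) and S rats (0.56 ± 0.12, adjusted p = 0.0086), and its difference in ET3x2 was 0.33. Mvd, mevalonate diphosphate decarboxylase, went the other way in ET3x1 rats, where it was lower by 0.33 on the log2 scale (SE 0.11, adjusted p = 0.034). The median over the 5 genes was 0.33, 0.28 and 0.28 in ET3x2, ET3x1 and S rats.

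Of the other sterol steps, 6 of 8 listed genes were tested. Lbr, a sterol reductase of the nuclear envelope, was higher for salt in ET3x1 rats (0.47 ± 0.10, adjusted p = 0.0018), and Tm7sf2, the related sterol reductase of the endoplasmic reticulum, in S rats (0.36 ± 0.09, adjusted p = 0.035). Among 11 tested genes of SREBP control, 1 was called higher in ET3x2, 0 in ET3x1 (by limma) and 1 in S rats. Insig1, which holds the SREBP escort in the endoplasmic reticulum and is itself a known SREBP target, was higher in S rats by 0.76 ± 0.13 (adjusted p = 0.0015), with differences of 0.27 in ET3x2 and 0.23 in ET3x1. The call in ET3x2 rats was Pgrmc1, a membrane haem-binding protein (0.52 ± 0.11, adjusted p = 0.030). It was lower in ET3x2 than in ET3x1 rats on low salt by 0.66 on the log2 scale (SE 0.11, adjusted p = 0.0021), and its ET3x2 minus S difference on low salt was also -0.66 ± 0.10 (adjusted p = 2.2e-04); on high salt ET3x2 minus ET3x1 was -0.36 ± 0.11 (adjusted p = 0.035). Srebf2, which encodes SREBP-2, differed by 0.15, 0.03 and 0.18 in ET3x2, ET3x1 and S rats and was called in none of them.

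Of 15 listed genes of cholesterol uptake and efflux, 7 were tested, and no gene was called higher for salt in any strain. In ET3x1 rats 3 were lower: Apoe, the lipid carrier apolipoprotein E, by 0.57 (SE 0.16, adjusted p = 0.015), and the efflux transporters Abcg1 and Abca1, with differences of -0.32 ± 0.09 (adjusted p = 0.017) and -0.29 ± 0.09 (adjusted p = 0.028). The list's median there was -0.24, beside -0.03 over all tested probe sets, and 8.90% of all probe sets were called lower in that comparison. The salt response of Apoe differed between ET3x1 and S rats (-0.96 ± 0.21, adjusted p = 0.011). For fatty acid synthesis, 10 of 13 listed genes were tested, and 0, 2 and 1 were called higher in ET3x2, ET3x1 and S rats. Scd2, a stearoyl-CoA desaturase, was higher by 1.09 ± 0.28 in ET3x1 (adjusted p = 0.0083) and 0.97 ± 0.25 in S rats (adjusted p = 0.031), and differed by 0.67 in ET3x2. Pnpla3, a lipid droplet protein and known SREBP-1 target, was higher in ET3x1 rats (0.49 ± 0.07, adjusted p = 8.9e-05), and its response in ET3x2 rats differed from that in ET3x1 by -0.60 ± 0.11 (adjusted p = 0.031).

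Between strains the same 5 lists had calls in both directions, beside 18.2% of all tested probe sets called for ET3x2 minus S and 26.8% for ET3x1 minus S on low salt, and 9.22% for ET3x2 minus ET3x1 on high salt. On low salt, ET3x2 minus S called Mvd (0.36 ± 0.10, adjusted p = 0.014), Srebf1, which encodes SREBP-1 (0.37 ± 0.11, adjusted p = 0.022), and Por, the electron donor of Cyp51 and Sqle (0.40 ± 0.14, adjusted p = 0.046), higher, and Acat2, a cytosolic thiolase, lower (-0.27 ± 0.10, adjusted p = 0.048). ET3x1 minus S on low salt called Mvk, mevalonate kinase (0.29 ± 0.08, adjusted p = 0.0075), Cyb5r3, a cytochrome b5 reductase (0.38 ± 0.11, adjusted p = 0.012), Fads2, a fatty acid desaturase (0.37 ± 0.12, adjusted p = 0.020), and, of the uptake and efflux list, Apoe (0.68 ± 0.15, adjusted p = 0.0023), Nr1h2 (0.60 ± 0.17, adjusted p = 0.011) and Npc2 (0.55 ± 0.08, adjusted p = 9.5e-05) higher. The uptake and efflux list had 3 of 7 higher and 1 lower there, the last being Lpl, lipoprotein lipase (-0.21 ± 0.08, adjusted p = 0.046). On high salt, ET3x2 minus ET3x1 called Lbr lower (-0.34 ± 0.10, adjusted p = 0.031) and Faxdc2 higher (0.31 ± 0.09, adjusted p = 0.024). Abca1 (0.36 ± 0.09, adjusted p = 0.014) and Abcg1 (0.35 ± 0.09, adjusted p = 0.017) were also higher there, and Pnpla3 was lower (-0.51 ± 0.07, adjusted p = 8.0e-04). Against S rats on high salt, Pnpla3 was lower in ET3x2 (-0.28 ± 0.07, adjusted p = 0.027) and higher in ET3x1 rats (0.23 ± 0.07, adjusted p = 0.028), the single call of the 5 lists in each of those comparisons. On low salt, Npc2 was lower in ET3x2 than in ET3x1 rats (-0.34 ± 0.08, adjusted p = 0.028).

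**Figure D4:**
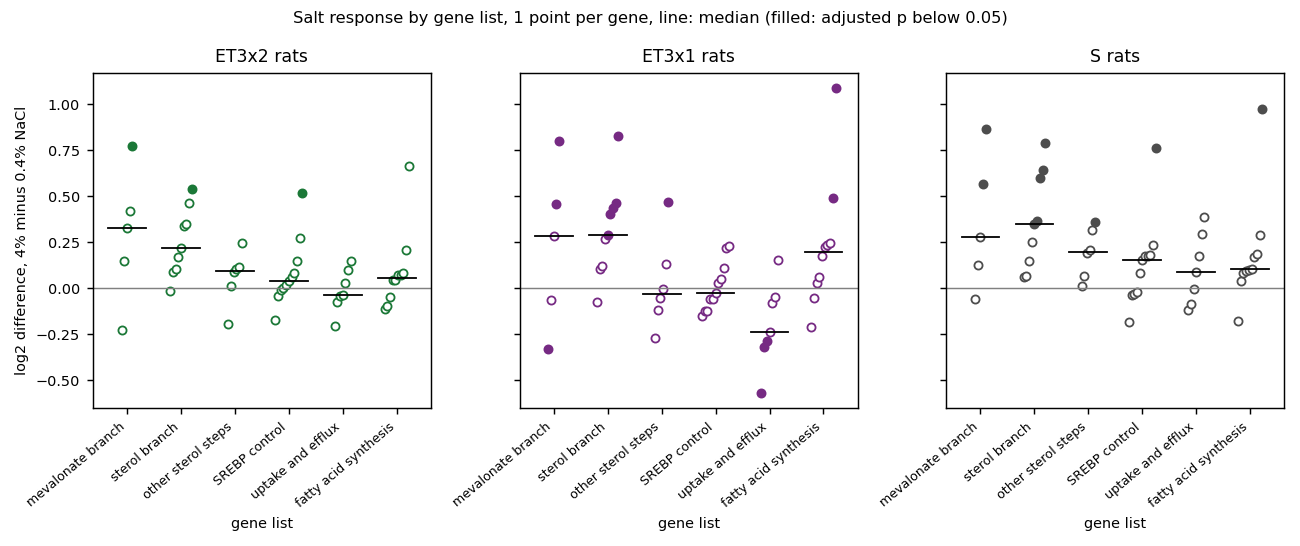
Log2 difference between 4% and 0.4% NaCl for each tested gene of 6 lists, 1 point per gene, with the list's median as a line, in ET3x2, ET3x1 and S rats; filled points passed an adjusted p of 0.05. The sterol branch has medians of 0.22, 0.29 and 0.35, and the uptake and efflux list has its 3 filled points below 0 in ET3x1 rats.

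Apart from the group means, the members' deviations from rat to rat were compared. Over the deviations of 26 rats from their group means, 30 of 36 pairs of members had a Pearson's r above 0, with a median of 0.27 and a range of -0.38 to 0.69. The share above 0 was not computed for pairs of other genes, and the 36 pairs share members, so they are not separate observations. Both values of a pair come from the same arrays, so array quality is shared between them. Fdft1 and Dhcr7 (0.69), Ebp and Dhcr7 (0.68), Cyp51 and Ebp (0.68) and Cyp51 and Dhcr7 (0.66) were the closest. S low-salt rat 1 had the lowest log2 signal of its group for each of these genes. Its signals were 9.64 for Fdft1, 7.14 for Cyp51, 8.23 for Ebp and 7.93 for Dhcr7. The group means were 10.04, 7.71, 8.51 and 8.26 in that order. How far these pairs rest on that rat was not tested. Lss stood apart, with a median r of -0.22 to the other 8 members. For Sqle, chosen as the member called in all strains, the closest member was Msmo1 (r = 0.64, Spearman's rho = 0.61). Permuting rats within groups gave p = 0.0035 for r and 0.0037 for rho, and adjusted p = 0.75 and 0.65 over 8741 genes. The 2 rats farthest from the median of Sqle were ET3x2 high-salt rat 1 and ET3x2 low-salt rat 2, and r was 0.55 without them. No gene of the 8741 passed that adjustment by either measure, and 521 had an unadjusted permutation p under 0.05 for r and 616 for rho, so the relation fails the correction.

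**Figure D5:**
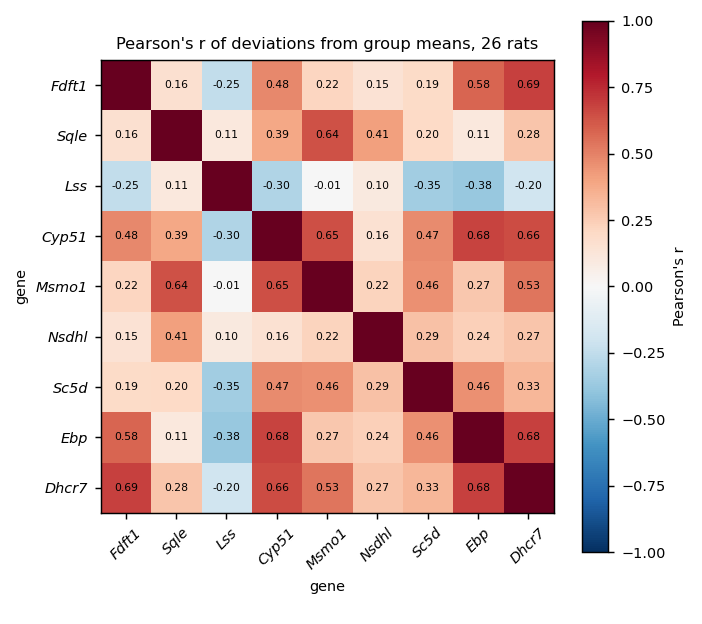
Pearson's r between members over the deviations of 26 rats from their group means, for all 36 pairs of leading probe sets; red is positive and blue negative. The row of Lss is mostly blue, and the highest value is 0.69, for Fdft1 and Dhcr7.

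The genes outside the branch whose deviations were most like the mean scaled deviation of the 9 members, among 8733 genes over 26 rats, were Fdps (r = 0.86), Ndufa8 (0.83), Psat1 (0.82), Insig1 (0.82), Sirt5 (0.80), Lsm6 (0.78), Mrps26 (0.77), Scd2 (0.77), Decr2 (0.77) and Dctn6 (0.76). Of these 10, Fdps is a mevalonate branch gene, Insig1 a gene of SREBP control and Scd2 a gene of fatty acid synthesis. Acly and Fasn, which make and use cytosolic acetyl-CoA for fatty acids, ranked 14 and 15 (r = 0.75 for each). Idi1, whose salt differences were the largest of the mevalonate branch, ranked 453 (r = 0.55), and Lbr ranked 8652 (r = -0.59). These values are descriptions of shared deviation on the same arrays.

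In the genome the members are scattered. By the GRCr8 annotation, Dhcr7 lies on chromosome 1, Cyp51 on 4, Sqle on 7 (92758175 to 92773049), Sc5d on 8, Fdft1 on 15, Msmo1 on 16, Lss on 20, and Ebp and Nsdhl on the X chromosome.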

How the data were processed

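Total RNA of 1 left kidney per rat was hybridised to an RAE230A and an RAE230B array (52 arrays, 26 rats), and GEO's labels gave each rat's strain and diet. What the authors deposited are log2 signals whose array medians are near equal (7.47 to 7.52 on RAE230A, 6.34 to 6.40 on RAE230B), so they were normalized before deposit; the method is not given in the sources used here. Members and gene lists were chosen with earlier results of these data known. Platform symbols were updated through Entrez identifiers to RefSeq (GRCr8). Probe sets with a mean at or above the chip's median of means (7.51 and 6.38) were tested, 15473 in all, with 100 probe sets shared by both chips tested on RAE230A only; 11110 have 1 symbol, 274 several and 4089 none. limma 3.58.1 (R 4.3.3) fitted 6 group means per chip with an intensity trend (20 residual degrees of freedom), and p-values were adjusted over both chips. Groups hold 4 or 5 rats; the labels give no litter or batch, replicate numbers do not pair rats, and the number of arrays limits the precision. For the other lists, the called genes with the largest change were named, at most 3 per list and comparison. The script was first tested on simulated data. Alternatives were quantile normalization, centred medians, no brightness limit, no trend, 2 array covariates, averaged probe sets and leaving out each rat; the response averaged over strains and the fit without S high-salt rats 1 and 2 were added after seeing the data. Correlations used SciPy 1.17.1 with 100000 permutations.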

Additional observations from a re-analysis of the deposited data

Results flagged for a closer look

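In 2 of the 54 groups of leading probe set values (9 genes in 6 groups), 1 rat lay far from the rest of its group by Dixon's criterion, where about 2.7 would be expected by chance. Fdft1 was 10.0638 in ET3x2 rat 3 on high salt, below the other 3 rats of the group at 10.2179 to 10.2271. Lss was 8.59987 in ET3x2 rat 4 on high salt, below the other 3 at 8.63772 to 8.64516, in the group with the smallest spread for that gene.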

How the results depend on the processing

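The counts of members called were compared with 7 other settings, and with both S high-salt rats 1 and 2 left out, which was added after seeing the data. Quantile normalization kept 26 of 26 member differences on the same side of the threshold, fitting without an intensity trend 25, centred array medians 25, no brightness limit 24, averaged probe sets 22, the spike-in covariate 16 and the Gapdh covariate 12. With the Gapdh covariate the members called were 0 in place of 5 for salt in ET3x1 rats, 0 in place of 1 for salt in ET3x2 rats, 1 in place of 2 for ET3x2 minus S on low salt, 0 in place of 1 for ET3x2 minus ET3x1 on high salt, and 1 in place of 7 for the mean salt response. With the spike-in covariate they were 2 in place of 5 for salt in S rats, 2 in place of 1 for salt in ET3x2 rats, and 0 in place of 1 for ET3x2 minus ET3x1 on high salt, where averaging probe sets also gave 0. Without both S high-salt rats 1 and 2 they were 1 in place of 5 for salt in S rats and 0 in place of 1 for ET3x2 minus S on high salt. The cause of these changes was not tested. No difference turned its sign among those called. Leaving out each rat gave 3 to 5 members for salt in S rats, 3 to 5 in ET3x1 rats, 0 to 1 in ET3x2 rats and 6 to 8 for the mean response. It gave 0 to 2 for ET3x1 minus S on low salt and 0 to 1 on high salt, 0 to 3 for ET3x2 minus S on low salt and 0 to 1 on high salt, and for ET3x2 minus ET3x1 0 on low salt and 0 to 1 on high salt; the differences of salt responses stayed at 0.

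Over all probe sets, the Gapdh covariate called 6 in place of 2457 for salt in ET3x1 rats, 0 in place of 47 in ET3x2 rats and 25 in place of 2239 for the mean response, and the spike-in covariate 137 in place of 430 in S rats and 958 in ET3x1 rats. Without the brightness limit 109 were called for salt in ET3x2 rats. Without both S high-salt rats 1 and 2, 1279 in place of 2246 were called for ET3x1 minus S on high salt, and 358 in place of 850 and 22 in place of 47 for the differences of salt responses, ET3x1 minus S and ET3x2 minus ET3x1. No paired analysis was possible because replicate numbers do not link rats of different groups. The number of arrays limits the precision.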
